A study of Drosophila melanogaster with 2 samples.

Results

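Small nuclear RNA (snRNA) genes encode the short, non-coding RNAs at the core of the spliceosome and of a few other nuclear particles. All genes that Ensembl annotates with the biotype snRNA in Drosophila melanogaster were taken, which gave 32 of the 24254 annotated genes. By the RNA named in the symbol they were 5 U1, 6 U2, 3 U4, 7 U5, 3 U6, 2 7SK and 4 minor-spliceosome genes (U4atac, U6atac, U11 and U12), plus U7 and LU. The U6, U6atac and 7SK genes, 6 in all, are of the kind that RNA polymerase III transcribes, and 25 of the others are of the RNA polymerase II kind. LU was not assigned to either polymerase. The prefix snRNA: of each symbol is left out below.

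The chromatin came from whole embryos of both sexes collected 0 to 14 hours after egg laying, from a transgenic line that stably expresses btn (buttonless, a homeodomain gene) fused at its C-terminus to eGFP. The chromatin was sheared by sonication, with a labelled size range of 200 to 800 bp, and recovered with an antibody against GFP. The 2 biological replicates, which the labels number 2 and 3, form 1 group. A line without the tag was not analysed here, so peaks are described as sites of the immunoprecipitation and not as sites of btn itself. Whole embryos mix all tissues, and the values cannot say in which cells a region was recovered.

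The authors' peak lists are the data. There were 2153 optimal peaks, which passed their reproducibility threshold. Lists of 30000 weaker and stronger candidate regions came from replicate 2, from replicate 3 and from both pooled. The pooled list is labelled as peaks and background, the input to the reproducibility step. Each candidate list ends at 30000 regions, and a candidate of low rank may be background. The optimal peaks had signals from 70.5 to 1220.2 with a median of 105, where signal is the authors' own value per region, and serves only for ordering regions inside each list (rank 1 is the strongest). Each list gives a summit, the point of highest signal in a region, and a gene was counted where a summit lay within 500 bp of its annotated start. Positions are in the dm6 build, and offsets run along the gene from the first transcribed base, with negative values upstream. Read numbers are not in these lists, so depth is unknown. With 1 group and no counts of reads there is no contrast to test, and counts of genes are given beside the same counts for other genes.

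In the spliceosome, U1 pairs with the start of an intron and U2 with its branch point, U4 holds U6 in an inactive duplex until the machine is assembled, U5 lines up the exons and U6 is part of the catalytic centre. U11, U12, U4atac and U6atac, with U5, do the same work on the rare introns of the minor class. U7 takes part in forming the ends of histone messenger RNAs, and 7SK RNA holds the elongation kinase P-TEFb in an inactive form. Fly snRNA promoters are known for the proximal sequence element A, which the SNAP complex (Pbp45, Pbp49 and Pbp95) binds upstream of the start. Promoters for RNA polymerase III have a TATA box downstream of this element, and those for RNA polymerase II do not.

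The promoters printed here belong to the 8 snRNA genes with an optimal summit and to 3 genes without one, and are shown because nearly all members carry 1 element that the selection rule did not use. Each runs 5′ to 3′ along the gene for 101 bases, from 75 bases before the start to 25 after it, read from the RefSeq Release 6 genome (dm6). Capitals mark the shared word of 8 bases and, in polymerase III genes, the TATA word. The first 5 genes are of the polymerase II kind, the next 3 of the polymerase III kind, and the last 3 are U12, U4:38AB and 7SKb, which had no optimal summit.
U1:21D (FBgn0003916, chr2L:901629-901729, minus strand): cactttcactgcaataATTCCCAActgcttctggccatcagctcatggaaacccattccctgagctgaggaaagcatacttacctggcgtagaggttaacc
U1:95Ca (FBgn0004185, chr3R:23859605-23859705, minus strand): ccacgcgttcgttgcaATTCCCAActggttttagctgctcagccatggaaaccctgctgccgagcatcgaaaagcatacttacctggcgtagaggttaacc
U2:34ABb (FBgn0004192, chr2L:13215764-13215864, plus strand): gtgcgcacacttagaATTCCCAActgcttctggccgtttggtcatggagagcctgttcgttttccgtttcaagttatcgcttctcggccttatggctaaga
U4:39B (FBgn0003930, chr2L:21215153-21215253, minus strand): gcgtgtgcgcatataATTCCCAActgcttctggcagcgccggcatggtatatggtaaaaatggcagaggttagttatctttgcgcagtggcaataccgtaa
U5:63BC (FBgn0003938, chr3L:3090726-3090826, plus strand): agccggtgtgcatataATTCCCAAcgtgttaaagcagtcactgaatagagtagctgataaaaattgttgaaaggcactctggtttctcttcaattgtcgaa
U6:96Ab (FBgn0004189, chr3R:24556617-24556717, plus strand): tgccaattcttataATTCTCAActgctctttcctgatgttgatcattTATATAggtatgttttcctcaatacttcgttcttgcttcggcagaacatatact
U6:96Ac (FBgn0004190, chr3R:24557140-24557240, plus strand): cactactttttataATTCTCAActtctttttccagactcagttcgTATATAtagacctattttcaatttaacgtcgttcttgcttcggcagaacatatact
7SKa (FBgn0065099, chr3R:7474971-7475071, minus strand): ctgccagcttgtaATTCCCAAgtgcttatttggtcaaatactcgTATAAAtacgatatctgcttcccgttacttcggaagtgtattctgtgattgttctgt
U12 (FBgn0041721, chr3L:16653694-16653794, plus strand): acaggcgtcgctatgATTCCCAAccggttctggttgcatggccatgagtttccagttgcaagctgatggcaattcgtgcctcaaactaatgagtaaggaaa
U4:38AB (FBgn0003931, chr2L:19810659-19810759, plus strand): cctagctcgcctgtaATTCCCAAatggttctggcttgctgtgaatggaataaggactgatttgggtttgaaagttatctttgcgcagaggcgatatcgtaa
7SKb (FBgn0288809, chr3R:23432794-23432894, plus strand): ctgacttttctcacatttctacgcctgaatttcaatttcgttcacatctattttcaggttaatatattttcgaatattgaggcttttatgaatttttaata

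The word ATTCCCAA was found on the gene's strand between 75 and 36 bases before the start in 26 of the 32 genes (81.2%), and ATTCTCAA, which is ATTCNCAA with another base at N, in 5 more (15.6%). These 5 were U2:38ABb, U4:25F, U6:96Ab, U6:96Ac and LU. Its first base lay 56 to 65 bases before the start, with a median of 59, which is where the proximal sequence element A is known to lie. The search was confined to 75 to 36 bases before the start, and the word was chosen as the most frequent one there. Only 7SKb had neither form. A TATA word (the word TATATA, the word TATAAA or the word TATAAG) was searched on the gene's strand. The search was confined to a short window between the shared word and the start, which bounds the position found. A TATA word stood there in 5 of the 6 polymerase III genes, all but 7SKb, 28 to 31 bases before the start. In that window it was present in 0 of 25 polymerase II genes. The word was present in all 8 genes with an optimal summit, and also in genes without one, such as U12 and U4:38AB.

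**Figure D1:**
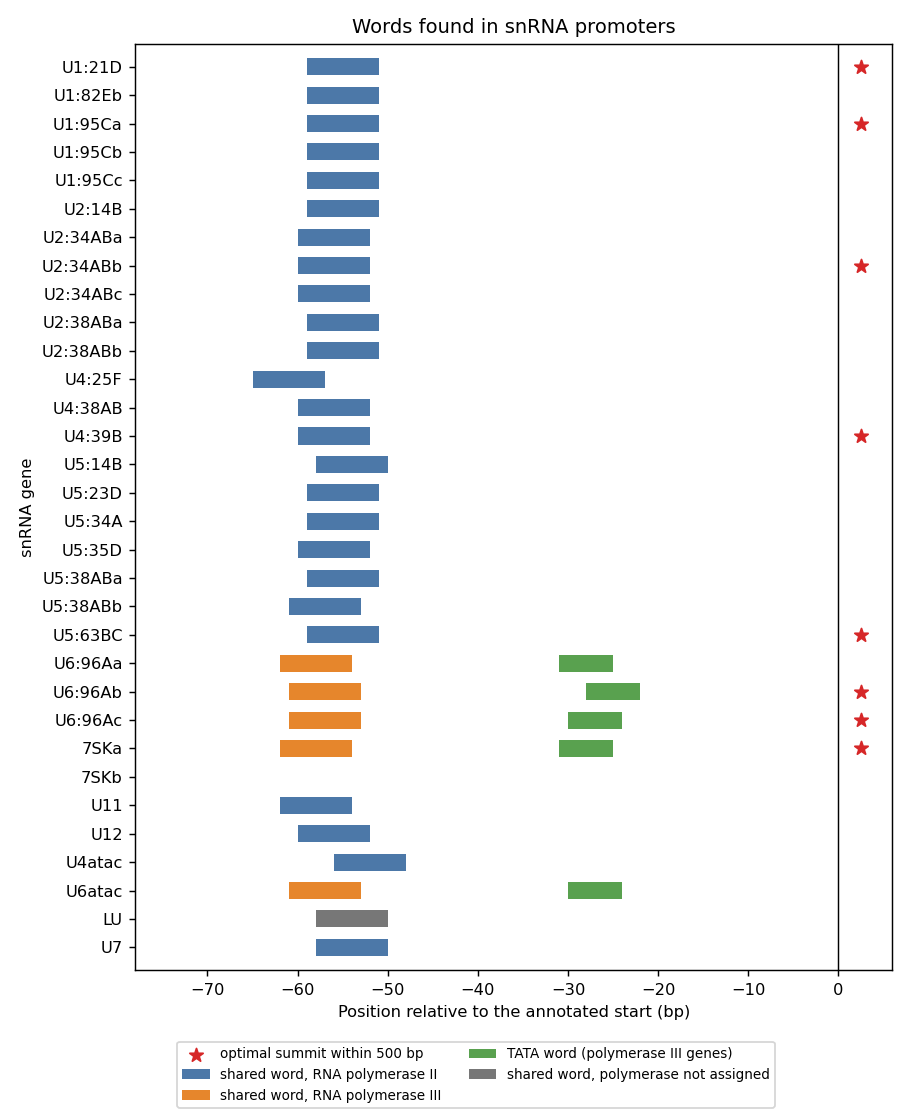
Positions of the shared word and of the TATA word in each of the 32 snRNA genes (rows) relative to the annotated start (x axis, bp); colours give the polymerase, and stars mark the 8 genes with an optimal summit within 500 bp. The shared word is missing from 7SKb alone, and the TATA word is drawn in 5 polymerase III genes.

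The shared word was searched on both strands from 250 bases before to 50 after the start, the window used for every word that follows. It was present in 31 of 32 members (96.9%) and in 2.8% of 18245 other genes, and other genes with an optimal summit had it in 2.73%. The word was picked as the most frequent one in these same member promoters, so its high share among members was built in. TAATTA, the core that many homeodomain proteins bind, was in 1 of 32 member windows (3.12%) and in 0 of the 8 with an optimal summit, against 19.7% of other genes and 20.1% of other genes with an optimal summit. GAGAGAG, the repeat bound by GAGA factor, was in 0 of 32 member windows and in 5.59% of the others. TATAAA was in 15 of 32 (46.9%) and in 43.9% of the others. A match is a description of letters in a window, and says nothing of what bound there.

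An optimal summit lay within 500 bp of the start of 8 of the 32 snRNA genes, which is 25%. The same rule called 6.4% of all other genes without transposable elements (1172 of 18326), 7.56% of protein-coding genes, 2.24% of tRNA genes (7 of 312) and 3.35% of snoRNA genes (9 of 269). By class, 2 of 5 U1, 1 of 6 U2, 1 of 3 U4, 1 of 7 U5, 2 of 3 U6, 1 of 2 7SK and 0 of 4 minor genes were called, and neither U7 nor LU. The 8 genes were U1:21D, U1:95Ca, U2:34ABb, U4:39B, U5:63BC, U6:96Ab, U6:96Ac and 7SKa. They shared 7 peaks, since 1 peak with its summit between U6:96Ab and U6:96Ac served both. The 8 genes fell at 7 of the 26 loci that remain when genes starting within 1 kb of each other are joined. By polymerase, the count was 5 of 25 for the polymerase II kind and 3 of 6 for the polymerase III kind. The genes of a class share their sequence, and no difference between the polymerases was tested.

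The 2 U1 genes had near equal peaks. U1:95Ca, the strongest of the snRNA genes in the optimal and pooled lists though not in either replicate, had a peak of signal 112 (chr3R:23859318-23859727, rank 932 of 2153) with its summit 107 bp into the gene. In replicate 2 its signal was 48.7 (rank 1223 of 30000) and in replicate 3 it was 58.6 (rank 921), so both libraries placed it among their stronger regions. U1:21D had a peak of signal 108 (chr2L:901321-901730, rank 1000) at +128, with ranks of 1122 and 1070 in replicates 2 and 3 and signals of 51.1 and 54.7. The summits of the 2 replicates lay within 12 bp of the optimal summit at U1:95Ca, and at most 73 bp from it at U1:21D. The nearest protein-coding starts were 30529 bp (Pli) and 2882 bp (Lsp1beta) from these summits.

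Of the other U1 genes, U1:82Eb had a pooled summit at +82 (rank 5388), below the optimal set, with summits at +146 in replicate 2 (rank 6352) and +82 in replicate 3 (rank 9302). U1:95Cc had a weak pooled summit at +422 (rank 23921), and U1:95Cb had the closest pooled summit at +538, just past the 500 bp limit. U1:95Cb is 100% identical in sequence to U1:95Ca and to U1:21D over the RNA. Unlike them, it had no summit within 500 bp of its start in any list. The part of shared sequence in these peaks was not tested.

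Among the U2 genes, only U2:34ABb had an optimal peak (chr2L:13215796-13216205, signal 106, rank 1034), with its summit at +162. Its rank was 836 in replicate 2 (signal 60.1, summit at +154) and 1757 in replicate 3 (signal 43.0, summit at +187). The summit was 651 bp from the start of kek4, a gene of the kekkon family of transmembrane proteins, and this was the only optimal summit of the snRNA genes within 1 kb of a protein-coding start. U2:34ABa had a pooled summit at +170 (rank 12184), 132 bp from the start of CG15482. U2:34ABc, U2:38ABa, U2:38ABb and U2:14B had no pooled summit within 500 bp, although U2:38ABa had 1 in replicate 2 alone, at -96 (rank 29295).

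U4:39B had a weaker optimal peak (chr2L:21214870-21215279, signal 75.2, rank 1911) at +103, in a gene that overlaps Atg18b on the same strand. The replicates differed here: its rank was 1150 in replicate 2 (signal 50.3) and 8034 in replicate 3 (signal 21.8). U4:38AB, whose RNA is 94.4% identical to that of U4:39B, had a pooled summit at +148 (rank 4689), with rank 9218 in replicate 2 and 4214 in replicate 3. U4:25F, the most distant copy, had no candidate summit within 500 bp in any list.

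U5:63BC was the only one of 7 U5 genes with an optimal peak (chr3L:3090632-3091041, signal 82.2, rank 1647), and its summit, at +36, was the nearest to a start among the optimal ones. Its ranks in replicates 2 and 3 were 1655 and 1938, with signals of 41.2 and 40.9. The summits of the replicates fell on either side of the start, at +77 and -31. U5:38ABb had a pooled summit at +45 (rank 16255) and U5:35D at +395 (rank 13369), the latter 209 bp from the start of ND-B17, which encodes a subunit of mitochondrial complex I. The other 4, U5:14B, U5:23D, U5:34A and U5:38ABa, had none in any list.

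U2 and U5 genes stand head to head at 4 places, with starts 287 to 609 bp apart. At 3 of these pairs (U2:34ABc with U5:34A, U5:38ABa with U2:38ABb, and U5:14B with U2:14B) no list had a summit within 500 bp of either start. At the fourth, U2:38ABa with U5:38ABb, each candidate list had 1, and the optimal list had none. The U2 and U5 genes that did have optimal peaks, U2:34ABb and U5:63BC, are not in such a pair.

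The 3 U6 genes lie on the same strand within 1 cluster, and their RNAs are 100% identical. The optimal peak of the cluster (chr3R:24556868-24557277, signal 73.1, rank 2014) covered the start of U6:96Ac. The summit of this peak lay between U6:96Ab and U6:96Ac, 381 bp past the start of U6:96Ab and 142 bp upstream of U6:96Ac. Its rank was 1354 in replicate 2 (signal 46.4) and 4128 in replicate 3 (signal 28.8), so replicate 2 held it higher. It was 985 bp past the start of U6:96Aa, which had only weak candidates of its own, the best in the pool at -386 (rank 13325).

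7SKa, the longest of the called genes at 444 bp, had a peak of signal 109.7 (chr3R:7474626-7475035, rank 970) with its summit at +165. It was the one peak that replicate 3 ranked far higher, at 515 (signal 77.2), against 2067 in replicate 2 (signal 36.5). 7SKb had no candidate within 500 bp in any list. The 2 genes are only 49.7% identical, and 7SKb is the member that lacks both the shared word and a TATA word in the windows searched.

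No minor-spliceosome gene had an optimal peak. U12 came closest, with a pooled summit at +59 (signal 49.5, rank 4128), at +98 in replicate 2 (rank 5904) and at +59 in replicate 3 (rank 5564). U11 had a weak pooled summit at +103 (rank 20639), 496 bp from the start of Fie, whose gene it overlaps. U4atac had 1 summit in replicate 2 alone, at -456 (rank 8539), and U6atac had none. U7 had a weak summit in the pooled list alone, at -350 (rank 24319). LU had a pooled summit at -157 (rank 17843) and a better ranked one in replicate 3, at -55 (rank 6731), with none within 500 bp in replicate 2.

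**Figure D2:**
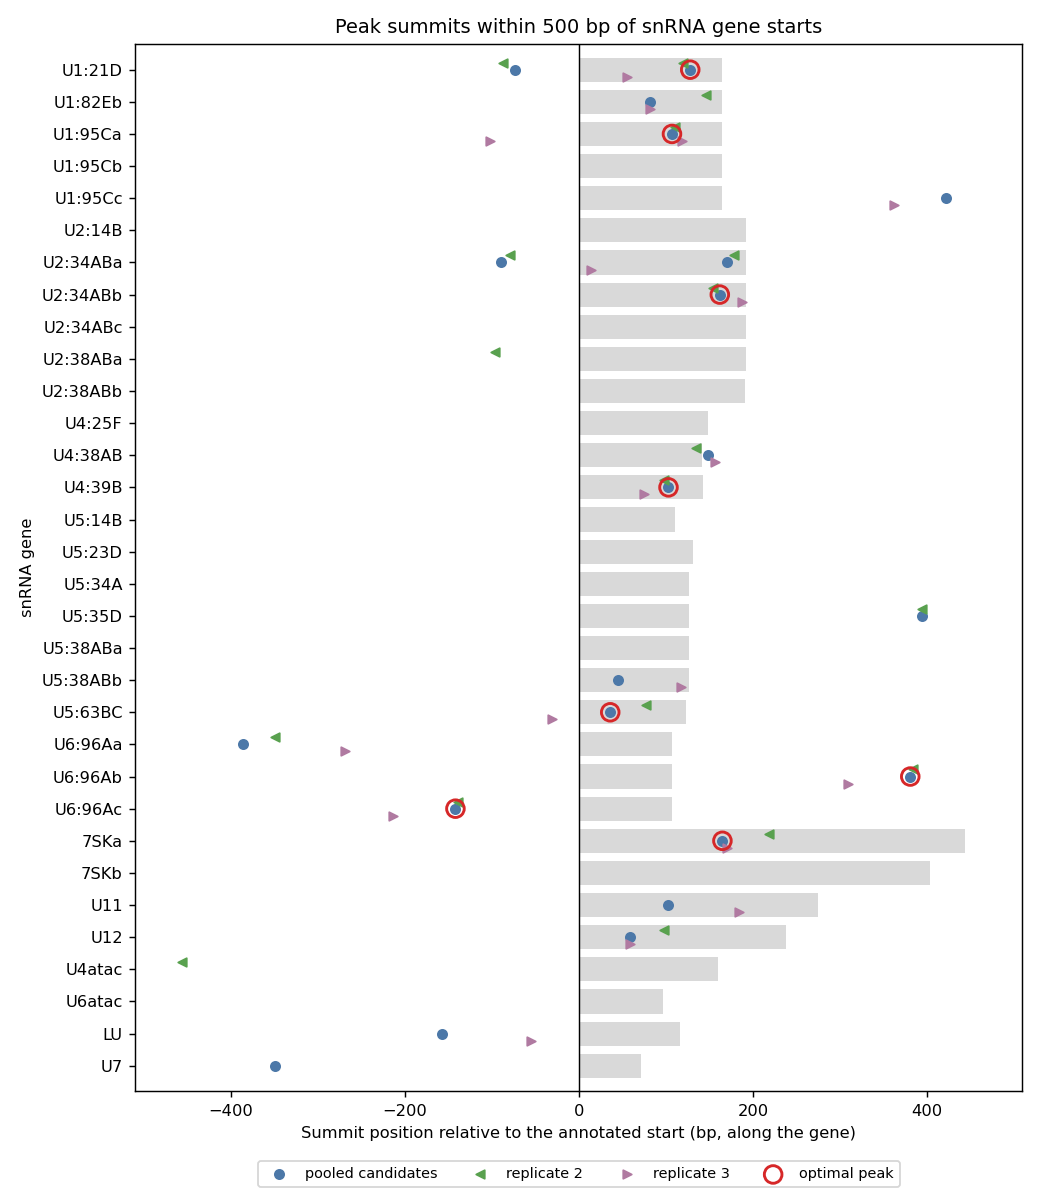
Every summit within 500 bp of the start of each snRNA gene (rows) in the pooled, replicate 2, replicate 3 and optimal lists; the x axis is the position relative to the annotated start in bp along the gene, and grey bars are the genes, up to 500 bp. Red rings mark the 8 gene and optimal peak combinations, 6 of which fall inside the gene.

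Most summits lay inside the gene and not upstream of it. Of the 8 genes with an optimal summit, 6 had it within the gene, 1 upstream and 1 past its end, the last 2 being the shared U6 peak. In the pooled list, 11 of 19 genes had it within the gene. The median offset was +117.5 bp in the optimal list, +103 in the pooled list (19 genes, from -386 to +422), +115 in replicate 2 (16 genes) and +82 in replicate 3 (17 genes). In the pooled list, 12 of 19 genes (63.2%) had their strongest summit from 0 to 200 bp after the start and 4 (21.1%) upstream. Among protein-coding genes the same share was 24.1%, and the median offset was -24 in the pooled list and -112 in the optimal list, where 78.7% of summits were upstream. For tRNA genes the pooled median was -2 (133 genes) and for snoRNA genes -67.5 (90 genes). These are descriptions without a test, and genes of 1 class share their sequence. Inside U1:21D, U1:95Ca and U2:34ABb no stretch of 36 bases occurs once in the genome. The part of copied sequence in the summit positions was not tested.

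The sequences under 4 optimal summits, 81 bases centred on the summit and along the gene, show where the summits fall. The first 3 summits, at U1:95Ca, U1:21D and U2:34ABb, lie inside the gene. The last lies between U6:96Ab and U6:96Ac.
U1:95Ca summit (chr3R:23859483-23859563, minus strand): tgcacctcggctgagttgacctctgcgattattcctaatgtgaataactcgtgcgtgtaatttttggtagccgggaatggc
U1:21D summit (chr2L:901486-901566, minus strand): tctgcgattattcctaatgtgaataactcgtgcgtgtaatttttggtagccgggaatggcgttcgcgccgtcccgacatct
U2:34ABb summit (chr2L:13215961-13216041, plus strand): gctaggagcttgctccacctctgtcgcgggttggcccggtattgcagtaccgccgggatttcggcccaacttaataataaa
U6:96Ab and U6:96Ac summit (chr3R:24557033-24557113, plus strand): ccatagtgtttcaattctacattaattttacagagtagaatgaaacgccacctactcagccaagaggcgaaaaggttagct

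The G and C content within 100 bp of the 7 member summits was 42.3% in the median, from 35.3% to 63.2% at 7SKa, against 37.8% over all optimal summits. TAATTA was within 100 bp of 1 of the 7 (14.3%, at U4:39B), near the 12.9% of all optimal summits, and GAGAGAG of 0 of 7, against 5.57%. The shared promoter word, which was picked from the member promoters, lay within 205 bp of 5 of the 7 (71.4%) and of 4.32% of all optimal summits. At 7SKa and U2:34ABb it did not.

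A pooled candidate summit lay within 500 bp of 19 of the 32 starts (59.4%). The same held for 41.7% of all other genes, 46% of protein-coding genes, 42.6% of tRNA genes and 33.5% of snoRNA genes, so this looser count stood nearer to its background than the optimal one. By class it was 4 of 5 U1, 2 of 6 U2, 2 of 3 U4, 3 of 7 U5, 3 of 3 U6, 1 of 2 7SK and 2 of 4 minor genes, and both U7 and LU. Both replicates had a candidate at 13 of the 32 genes, against 27.4% of all other genes. Neither replicate did at 12, and no list had a summit within 500 bp of 11 genes. The shares of other genes for these last counts were not computed.

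The replicates did not order the peaks alike. Among the 13 genes with a candidate in both, replicate 2 gave the better rank at 8 and replicate 3 at 5. All 7 optimal peaks were among the 2153 strongest candidates of replicate 2, and 5 were among the 2153 strongest of replicate 3. When replicate 3 stood alone, U4:39B and both U6 genes fell outside that number, and the count went from 8 to 5. The 4 strongest snRNA peaks (U1:95Ca, 7SKa, U1:21D and U2:34ABb) had signals at or above the median of the optimal peaks, and all snRNA peaks were far below the strongest optimal peak.

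**Figure D3:**
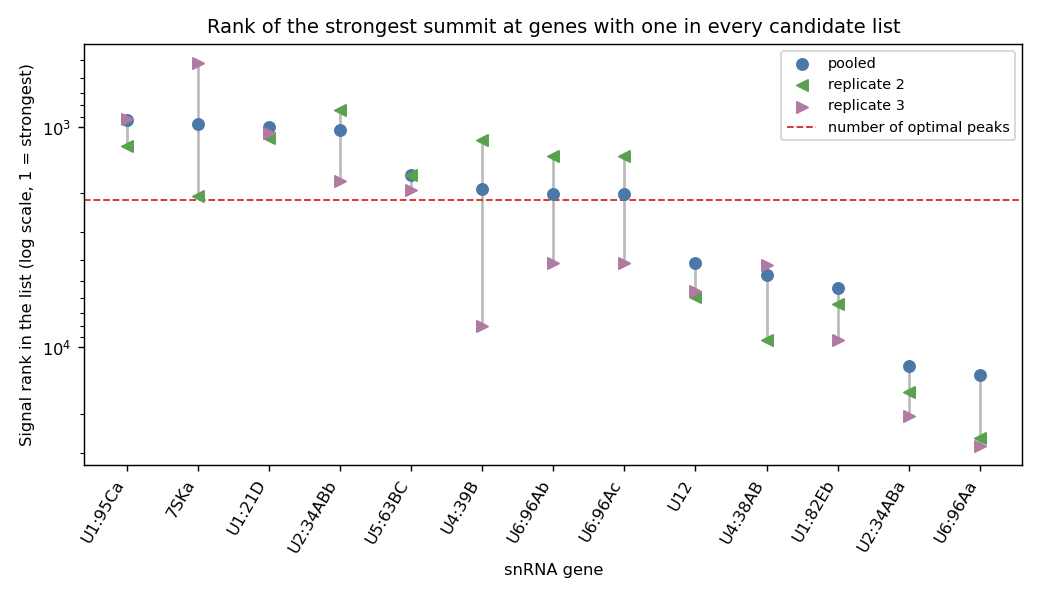
Rank of the strongest summit within 500 bp of the start at the 13 snRNA genes with one in the pooled list and in both replicates (y axis, log scale, inverted so that stronger is higher); genes are ordered by pooled rank and the dashed line is the 2153 optimal peaks. U4:39B, U6:96Ab and U6:96Ac drop below the line in replicate 3 only.

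To separate the snRNA genes from promoters of messenger RNA genes, the count was repeated with summits over 1 kb from any protein-coding start. Of the 27 snRNA genes whose own start is that far away, 7 had such an optimal summit (25.9%), U2:34ABb being the one lost. Among other noncoding genes with the same distance it was 1.78% (56 of 3138), among tRNA genes 1.88% (4 of 213) and among snoRNA genes 2.17% (4 of 184). In the pooled list, 15 of the 27 (55.6%) had such a summit, against 21.7% of other noncoding genes. In both replicates at once, 10 of the 27 snRNA genes did, and the matching share of other genes was not computed. 7SKa was not among these, as its replicate 2 summit was 996 bp from the start of CG1142. Its optimal summit was 1050 bp from that start, close to the limit.

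**Figure D4:**
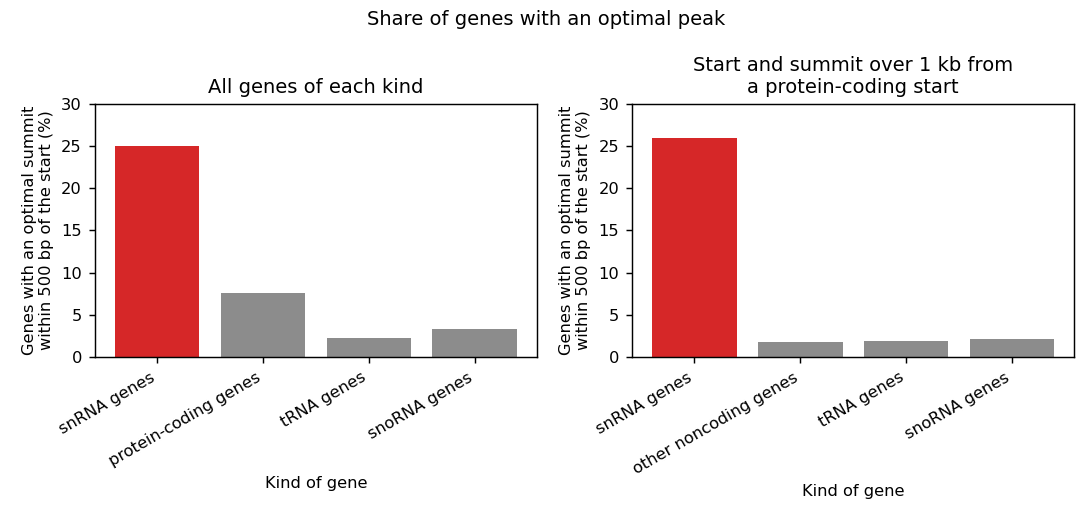
Percent of genes with an optimal summit within 500 bp of the start (y axis from 0), for snRNA genes (red) and other kinds of genes (grey). The left panel has all genes (25% of 32 snRNA genes) and the right panel genes and summits over 1 kb from a protein-coding start (25.9% of 27).

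The copies of an snRNA gene are hard to tell apart by short reads. Identity within a class was 98.2% to 100% for U1, 98.4% to 100% for U2 and 100% for U6, but 73.8% to 94.4% for U4 and 78.3% to 96.1% for U5. In 5 of the 8 genes with an optimal summit (U1:21D, U1:95Ca, U2:34ABb, U6:96Ab and U6:96Ac) no stretch of 36 bases inside the gene occurs once in the genome. The share of unique stretches was 100% at 7SKa, 50% at U4:39B and 37.5% at U5:63BC. Inside the gene, the median share was 0% for the genes with an optimal summit. It was 49.5% for those with a pooled summit only and 36.5% for those with none. Within 205 bp around the start, flanks included, these medians were 78.9%, 84.6% and 83.5%. The read length and the handling of reads with several matches were not given in the sources used here, and the part of copied sequence in the result was not tested. The 23 genes that have a unique stretch were also counted alone, a choice made after the data were seen. Of these 23, 3 had an optimal summit (7SKa, U4:39B and U5:63BC) and 13 a pooled one. Of all other genes, without this choice, 6.4% had an optimal summit and 41.7% a pooled one. No share of other genes under the same choice was computed.

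**Figure D5:**
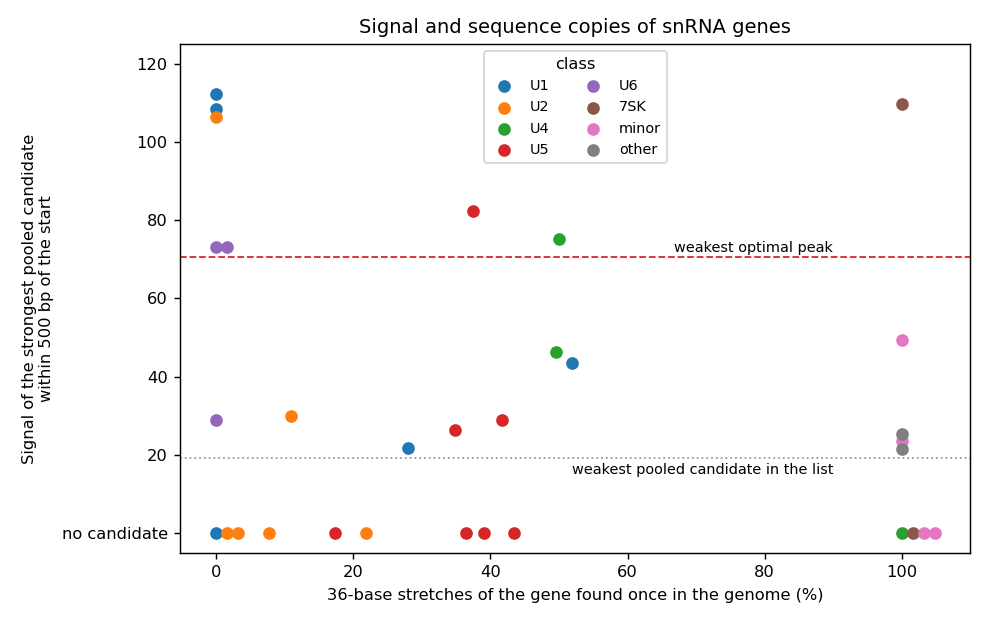
Signal of the strongest pooled candidate within 500 bp of each of the 32 snRNA gene starts (y axis, the authors' value) against the percent of 36-base stretches of the gene that occur once in the genome (x axis), coloured by class; genes without a candidate are drawn at the bottom, and genes at the same place are set side by side. Genes with an optimal summit and genes without a candidate stand at both ends of the x axis. The median of the 8 genes with an optimal summit is 0%, and 7SKa is the one fully unique gene above the weakest optimal peak.

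Proteins that make and use snRNAs were looked at through 75 protein-coding genes in 7 lists, each counted when an optimal summit was within 500 bp of any of its starts. It was so for 7 of 75 (9.33%), against 8.94% of all protein-coding genes, so the share was near the background. The SNAP complex and polymerase III initiation list had 2 of 7, Bdp1 and Brf, both subunits of the factor TFIIIB that places polymerase III on its promoters. Bdp1 had a signal of 338 (rank 85, summit at -71), with ranks of 79 and 91 in replicates 2 and 3, so it stood among the strongest peaks in each list. Brf had a signal of 182 (rank 344, at -98). None of the 3 SNAP complex genes had an optimal summit.

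The Integrator list, of the complex that cleaves nascent snRNAs, had 2 of 14, IntS9 (the partner of its endonuclease; signal 163, rank 439) and IntS6 (signal 152, rank 511). The 7SK particle list had 1 of 5, bin3, which encodes the enzyme that caps 7SK RNA (signal 111, rank 958). The list of the little elongation complex, which acts on snRNA genes of polymerase II, had 1 of 5, lilli (signal 103, rank 1103). The product of lilli is not a subunit of this complex itself, and the other genes of the list had no optimal summit. The list of assembly and transport had 1 of 15, the import receptor gene msk (signal 115, rank 885). The Sm and LSm proteins, which form rings on the RNAs, had 0 of 12, and the other proteins of the spliceosomal particles had 0 of 17. A pooled candidate was within 500 bp of any start at 60 of the 75 genes, against 49.5% of all protein-coding genes, a difference that was not tested.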

How the data were processed

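Per the labels, chromatin immunoprecipitation was sequenced from 2 replicates of 1 group. Candidate lists came, per the README files deposited with them, from alignments plus a control, and the authors took the optimal list from these. The aligner, caller and threshold were not given in the sources used here. Regions within a list were ranked by the deposited signal, the authors' value, and the deposited summit offset gave positions in dm6. Gene models were Ensembl 115 (BDGP 6.54), sequences RefSeq Release 6, and computation used Python 3.11.15, pandas 2.3.3, numpy 2.4.6 and Biopython 1.88. Summit assignment was tested on simulated data. Members, gene lists and words were chosen with earlier results of these data known. Named genes were every snRNA gene, coding genes starting within 1 kb of a member summit, and up to 3 per list with the strongest optimal peak; other coding genes are named only as neighbours. In the lists, 8 names matched no gene. The shared word was found from the members' own promoters. No test was possible, as there was 1 group and no read count. Alternatives changed distance, signal threshold, replicate, counting unit and summits near coding starts.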

Additional observations from a re-analysis of the deposited data

How the results depend on the processing

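The count of snRNA genes with an optimal summit, 8 of 32, was 7 to 9 under other distances, with the peak region over the start, without summits within 1 kb of a protein-coding start, by loci (7 of 26) and by distance from any base of the gene. It moved to 4 with only the optimal peaks at or above their median signal (7SKa, U1:21D, U1:95Ca and U2:34ABb). To leave out 1 replicate, the 2153 strongest candidates of the other one took the place of the optimal list. The count was then 5 to 8, the 5 being without replicate 2, where U4:39B, U6:96Ab and U6:96Ac were lost. With only the genes that have a 36-base stretch found once in the genome, an alternative chosen after seeing the data, it was 3 of 23. Other genes were not counted under that alternative. The pooled count of 19 ranged from 14 to 23 of the 32 genes and was 13 of the 23 with a unique stretch, the count in both replicates of 13 from 10 to 19, the median offset of +103 from +82 to +115, the median pooled rank of 4689 from 3787.5 to 5564, and the protein gene count of 7 from 7 to 10. The causes were not tested. Depth is unknown, which limits what a missing summit can say. No paired analysis was possible because there was only 1 group.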

Other observations

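Besides the snRNA genes, 31 other genes carry ATTCNCAA, in the form ATTCCCAA or ATTCTCAA, between 75 and 36 bases before the start. An optimal summit was within 500 bp of 5 of them (16.1%), against 6.41% of the other genes without the word, and a pooled one of 13 (41.9%), against 41.9%. The 5 were CG1774, lncRNA:CR34335, snoRNA:Me18S-C1968, the microRNA gene mir-34 and a short RNA annotated inside mir-34, which share a peak. RNaseMRP:RNA, the RNA of a ribosomal RNA processing enzyme, and 3 genes of the U3 snoRNA, which guides ribosomal RNA cleavage, had pooled candidates only. These 31 genes were found after the word was read from the snRNA promoters, and no test was made.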
